A study of Mus musculus with 15 samples.

Results

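The genes described here are 10 sarcomere genes that come in developmental or chamber-specific pairs. They were Myh7 and Myh6, Tnni1 and Tnni3, Myl7 and Myl2, Myl4 and Myl3, and Acta1 and Actc1, chosen by symbol. All 10 were among the 14337 genes listed and among the 12848 tested, so no member was lost to the filter on low values. For each pair the log2 ratio within a library was also taken, as the level of the first gene minus that of the second.

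RNA-Seq was performed on primary cardiomyocytes from whole hearts of C57/BL6 wild-type mouse pups aged 1 to 3 days, so the starting material held atria as well as ventricles. Culture lasted 5 days and was followed by 24 h of starvation with FBS at 0.5%. Treatment began on day 6 and RNA was taken on day 8. The groups were 3 control libraries given saline (S1, S2 and S3), 4 given 1 µM angiotensin II (AngII; S5, S6, S7 and S8), 4 given 20 nM cilengitide (ldCil; S9, S10, S11 and S12) and 4 given both at the same doses (AngII+ldCil; S13, S14, S15 and S16). AngII is a peptide hormone that enlarges cultured cardiomyocytes, and cilengitide is a cyclic peptide that binds αvβ3 integrin. The labels do not say whether the libraries of a group came from separate cultures or litters, so the p-values reflect how far these libraries differ among themselves, and that spread may be technical. Values are log2 RPKM (reads scaled to gene length and library size) as normalised by the authors. The depth of each library is unknown. Several libraries stood apart. S6, S7, S11, S12, S15 and S16 had high atrial genes and low interferon response genes, S16 also had low fibroblast and macrophage genes, and S8 and S15 were high in Tnni1.

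The sarcomere is the contractile unit of heart muscle, in which myosin thick filaments pull on actin thin filaments under the control of the troponin complex. Many of its proteins exist as isoforms from separate genes, and the heart exchanges one for another around birth and between chambers. In the mouse, the ventricle turns from the beta heavy chain of Myh7 to the faster alpha chain of Myh6, troponin I changes from the slow skeletal form of Tnni1 to the cardiac form of Tnni3, and skeletal actin (Acta1) gives way to cardiac actin (Actc1). The light chains Myl7 and Myl4 mark atrial muscle and, for Myl4, the embryonic ventricle, whereas Myl2 and Myl3 are the ventricular forms. Return of Myh7 and Acta1 is a textbook sign of cardiac hypertrophy.

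The 5 pairs differ in how far the partners resemble each other, which matters for reads. The coding sequences of Myh7 and Myh6 (GENCODE M21 transcripts) matched at 91.5% of aligned positions, the longest stretch without a difference was 245 bases, and 23.8% of the 50-base windows of Myh7 occurred unchanged in Myh6. Reads that lie within such a window cannot be told apart by sequence. How they were counted, and their effect on the level of Myh7 beside the far more abundant Myh6, was not tested. Acta1 and Actc1 matched at 86.2%, with a longest shared run of 29 bases and none of the 1085 windows of 50 bases in common. Tnni1 and Tnni3 (55.9%), Myl7 and Myl2 (57.3%) and Myl4 and Myl3 (63.8%) also had no 50-base window in common. The first 60 coding bases of both actins are printed here to show the kind of difference that separates their reads, with the 9 positions that differ in capitals.
Acta1: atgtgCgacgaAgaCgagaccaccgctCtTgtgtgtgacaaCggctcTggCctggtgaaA
Actc1: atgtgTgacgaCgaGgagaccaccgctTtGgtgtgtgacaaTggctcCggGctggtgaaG

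The stretches before the transcription starts of 4 members are shown because these genes ranged from nearly constant (Actc1) to the most variable of the 10 (Myl7). They come from RefSeq on GRCm38.p6, run 5′ to 3′ on the gene's strand and end at the start site or at the first annotated exon base. Capitals mark the CArG box, the binding motif of serum response factor, and the letters CATTCC on either strand (read as GGAATG on the other), the M-CAT motif of TEAD factors. The Myl7 stretch is chr11:5898783-5899032 on the minus strand, that of Acta1 chr8:123894776-123895025 (minus), that of Actc1 chr2:114052888-114053125 (minus) and that of Myh7 chr14:54994627-54994876 (minus).
Myl7: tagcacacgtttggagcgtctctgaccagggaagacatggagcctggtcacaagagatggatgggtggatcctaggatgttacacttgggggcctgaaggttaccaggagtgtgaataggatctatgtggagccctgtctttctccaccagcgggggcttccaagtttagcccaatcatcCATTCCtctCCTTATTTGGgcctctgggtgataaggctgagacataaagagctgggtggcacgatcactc
Acta1: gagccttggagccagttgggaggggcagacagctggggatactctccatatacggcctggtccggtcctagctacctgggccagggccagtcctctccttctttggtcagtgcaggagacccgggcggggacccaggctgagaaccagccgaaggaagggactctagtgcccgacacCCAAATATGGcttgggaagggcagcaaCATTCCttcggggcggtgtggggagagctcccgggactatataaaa
Actc1: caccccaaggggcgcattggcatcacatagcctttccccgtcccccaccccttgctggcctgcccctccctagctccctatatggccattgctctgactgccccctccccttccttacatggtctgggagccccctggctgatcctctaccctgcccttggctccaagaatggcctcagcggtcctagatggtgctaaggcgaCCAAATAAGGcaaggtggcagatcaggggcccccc
Myh7: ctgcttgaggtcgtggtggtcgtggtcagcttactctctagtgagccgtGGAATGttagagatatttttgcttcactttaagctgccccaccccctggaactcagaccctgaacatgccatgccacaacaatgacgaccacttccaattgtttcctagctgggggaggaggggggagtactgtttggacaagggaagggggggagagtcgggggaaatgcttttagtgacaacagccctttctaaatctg

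A CArG box stood in the stretches of Myl7, Acta1 and Actc1, and one also stood before Myl3. The windows of Myh6, Myh7, Tnni1, Tnni3, Myl2 and Myl4 held no such box, although the Tnni3 window overlaps an annotated exon and the Myl2 windows lie 7762 and 8227 bases from the nearest GENCODE start. Both strands were searched. Among 32851 RefSeq promoter windows cut to the same 250 bases, 1.47% held one. CATTCC was found once each before Myl7, Acta1, Myh7 and Myh6, and 2 times before Myl3, against 12.6% of all windows. GATAA, the core of a GATA site, was found in the 250-base windows of Myl7, Myl3 and Myl2 (22.6% of all windows). None of the printed stretches held AGGTCA (14.02% of windows) or a MEF2 box (0.508%), and the motifs do not overlap. Such matches describe letters and not binding. The nearly constant Actc1 and the variable Acta1 each carried a CArG box.

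The cells expressed the full set of adult-type and ventricular isoforms at high levels. Over the 15 libraries Actc1 was the most abundant member at a mean log2 RPKM of 11.69 ± 0.16 (SD, n = 15), followed by Myh6 at 11.22 ± 0.18, Myl2 at 10.03 ± 0.19, Myl3 at 9.84 ± 0.31 and Tnni3 at 9.55 ± 0.36. The partner isoforms were lower, with Myl7 at 7.74 ± 1.13, Myl4 at 7.53 ± 0.98, Myh7 at 6.58 ± 0.69, Acta1 at 4.76 ± 0.93 and Tnni1 at 4.16 ± 0.56. Actc1 exceeded Myh6 in 15 of 15 libraries and Myh6 exceeded Myl2 in 15 of 15. Neighbours whose order changed with the library were Myl2 and Myl3 (14 of 15), Myl3 and Tnni3 (13 of 15), Myl7 and Myl4 (11 of 15), Myl4 and Myh7 (14 of 15), Myh7 and Acta1 (14 of 15), and Acta1 and Tnni1 (12 of 15). Myl7 and Myl4 differed by a mean of 0.20 on the log2 scale, less than the SD of that difference, 0.42.

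Variation between libraries was concentrated in the fetal and atrial partners. The SD of Myl7 stood at percentile 98.04 of all genes tested, that of Myl4 at 96.85, Acta1 at 96.35, Myh7 at 91.52 and Tnni1 at 86.03. In contrast, Actc1 (12.52), Myh6 (17.79), Myl2 (22.17) and Myl3 (54.81) stood near or below the middle, and Tnni3 was at 65.38. Part of this is built into the values. The top 4684 ranks, those at a log2 RPKM of 4.50 and above, hold the same set of numbers in every library, so a very abundant gene can move only by changing rank. Actc1 took 4 distinct values over the 15 libraries and Myh6 took 5. The share of variance between groups, with a median of 18.3% over all genes tested, was above that median for 7 members and below it for 3. It was 56.6% for Actc1, 44.75% for Myh6, 34.0% for Tnni3, 30.8% for Myl4, 26.4% for Myh7, 25.9% for Myl3 and 24.3% for Myl2, and 17.4% for Myl7, 4.41% for Acta1 and 2.78% for Tnni1.

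**Figure D1:**
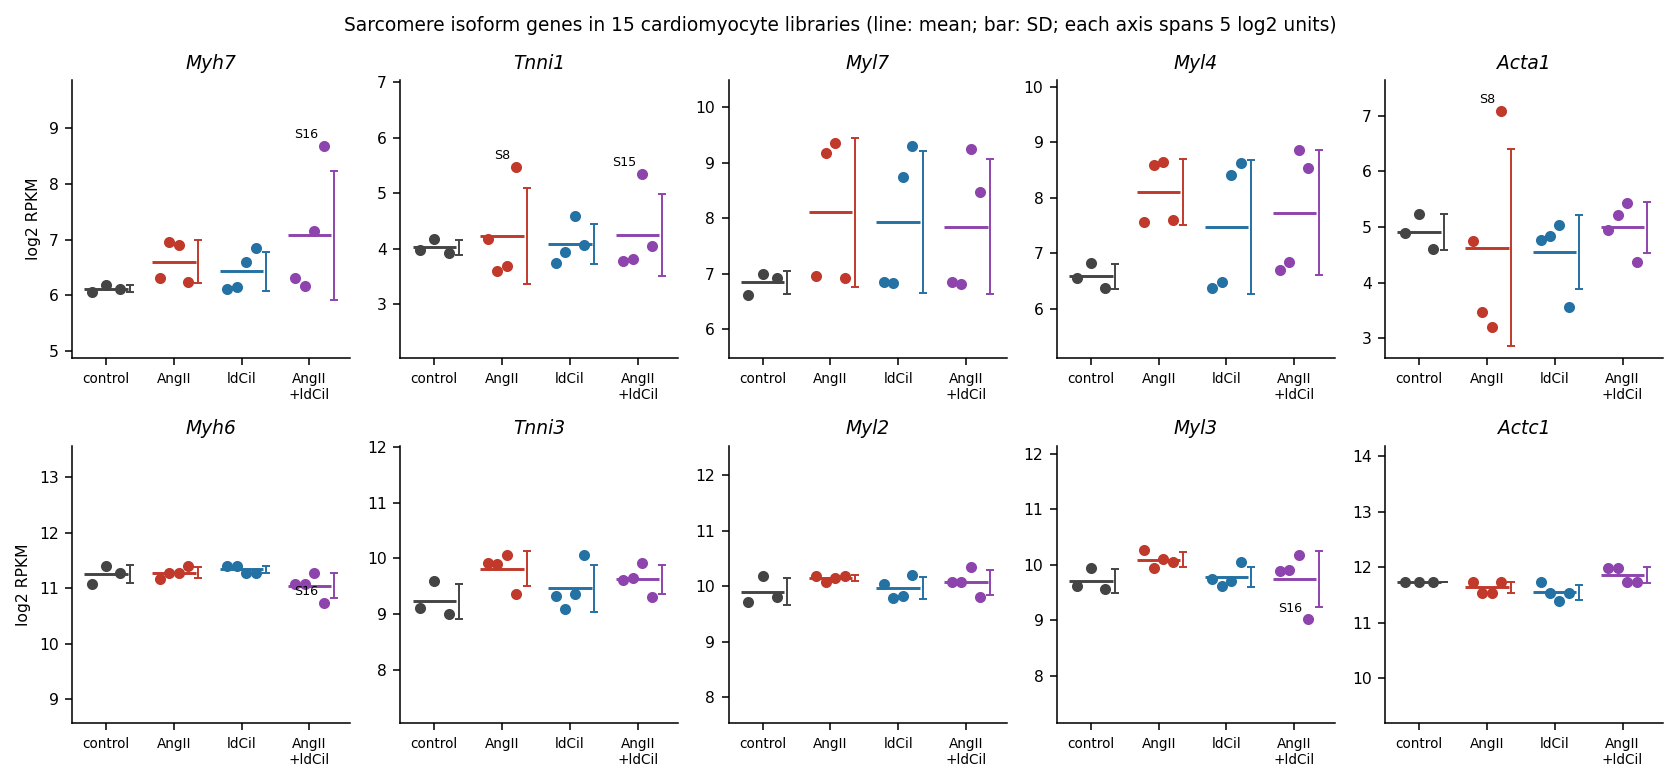
Log2 RPKM of the 10 genes (vertical axis; each panel spans 5 log2 units) in each library, by treatment group, with 1 point per library, a line at the group mean and a bar of 1 SD. Myl7 and Myl4 lie at 2 levels within each treated group, Myh7 is highest in S16 at 8.68 and Acta1 is highest in S8 at 7.08.

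No member differed between groups after correction for all genes. In limma's fit over the 15 libraries, 0 of the 10 passed an adjusted p of 0.05 in any of 5 group comparisons or in the AngII by ldCil interaction, and neither did any other gene (0% of 12848 in each). The smallest adjusted p over all genes was 0.782 for AngII against control, 0.966 for ldCil against control, 0.849 for AngII+ldCil against control, 1 for AngII+ldCil against AngII, 0.974 for AngII+ldCil against ldCil and 0.958 for the interaction. At an unadjusted p of 0.05 limma passed 2 members in AngII against control (6.04% of all genes), 0 in ldCil against control (1.95%), 1 in AngII+ldCil against control (5.62%), 0 in AngII+ldCil against AngII (2.58%), 1 in AngII+ldCil against ldCil (5.07%) and 0 in the interaction (3.86%). These 4 results were Tnni3 and Myl4, both higher with AngII (3.41% of all genes passed in that direction), Myh7, higher with AngII+ldCil than in control (2.7%), and Actc1, higher with AngII+ldCil than with ldCil (2.75%).

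In AngII against control 8 members had a higher mean and 2 a lower one, with a median log2 fold change of 0.31 against 0.02 over all genes tested. The split was 8 to 2 for ldCil against control (median 0.08, all genes 0.00), 9 to 1 for AngII+ldCil against control (0.19, all genes 0.05), 4 to 6 for AngII+ldCil against AngII (-0.13, all genes 0.01) and 7 to 3 for AngII+ldCil against ldCil (0.16, all genes 0.03). The first 3 of these share the control libraries. The groups did not overlap for 2 members in AngII against control, Myh7 and Myl4, both higher, where 8.74% of all genes did not overlap and 5.06% did so with AngII higher. No member was free of overlap in ldCil against control (6.87% of all genes), AngII+ldCil against control (13.5%), AngII+ldCil against AngII (1.55%) or AngII+ldCil against ldCil (3.28%).

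**Figure D2:**
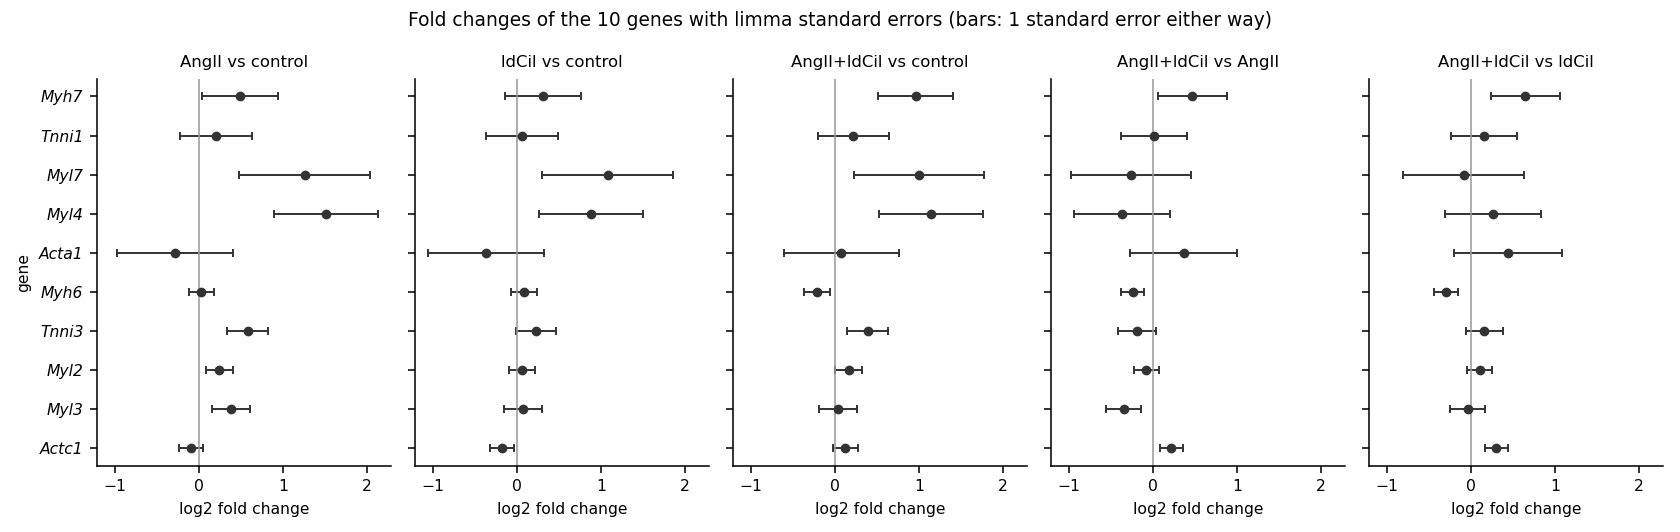
Log2 fold change of each of the 10 genes (horizontal axis) in 5 group comparisons, with 1 limma standard error either way. Myl7 and Myl4 have the largest differences from control, at 1.26 and 1.51 with AngII, and also wide errors, while the errors of Myh6, Myl2 and Actc1 are the narrowest.

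Myl7, the regulatory light chain of atrial muscle, took 2 separate levels. Its log2 RPKM was 6.62, 6.997 and 6.92 in the control libraries. In AngII it was 6.96, 9.18, 9.35 and 6.92, in ldCil 6.85, 6.83, 8.74 and 9.29, and in AngII+ldCil 6.85, 6.81, 9.25 and 8.48. Thus 9 libraries lay between 6.62 and 6.997 and the other 6 (S6, S7, S11, S12, S15 and S16) between 8.48 and 9.35, with a gap of 1.48 between them. The higher level was seen in 0 of 3 control libraries and in 2 of 4 of each treated group. The mean difference from control was 1.26 (standard error 0.78) in AngII, 1.08 (0.78) in ldCil and 1.00 (0.78) in AngII+ldCil, and none passed limma's test (unadjusted p 0.127, 0.185 and 0.218; adjusted p 0.786, 0.966 and 0.884). AngII+ldCil differed from AngII by -0.26 (standard error 0.72, limma adjusted p = 1). Each difference rested on the high libraries. The AngII difference from control was 0.84 without S7, that of ldCil 0.63 without S12 and that of AngII+ldCil 0.53 without S15, and the difference between AngII+ldCil and AngII was 0.16 without S7.

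Myl2, the ventricular regulatory light chain, did not follow. Its values were 9.73, 10.18 and 9.80 in control, 10.18, 10.07, 10.15 and 10.18 in AngII, 10.04, 9.78, 9.82 and 10.21 in ldCil, and 10.07, 10.07, 10.34 and 9.80 in AngII+ldCil. All 4 groups overlapped, and its range over the 15 libraries was 0.61. The Myl7 to Myl2 ratio therefore split as Myl7 did. It lay between -3.26 and -2.88 in the 9 libraries and between -1.32 and -0.80 in the 6, which puts Myl7 at 10.4% of the Myl2 level in the lowest library and at 57.6% in the highest. The group means of this log2 ratio were -3.06 ± 0.16 in control (n = 3), and -2.04 ± 1.38 in AngII, -2.04 ± 1.203 in ldCil and -2.22 ± 1.18 in AngII+ldCil (n = 4 each). In exact permutation tests against control p was 0.571, 0.4 and 0.571, in that order, and each adjusted p over the 25 ratio tests was 1. The AngII difference in this ratio was 1.02, and 0.60 without S7 and 0.63 without S6. That of ldCil was 1.02, and 0.65 without S12, and that of AngII+ldCil was 0.83, and 0.46 without S15 and 0.53 without S16.

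Myl4, the essential light chain of atrial and embryonic ventricular muscle, split the same libraries but held an intermediate step. It was 6.56, 6.82 and 6.37 in control, 7.57, 8.59, 8.65 and 7.60 in AngII, 6.37, 6.48, 8.41 and 8.62 in ldCil, and 6.70, 6.85, 8.86 and 8.53 in AngII+ldCil. All 4 AngII libraries lay above all 3 control libraries, and S5 and S8, which had the low level of Myl7, were the highest of the 9 low libraries at 7.57 and 7.60. The difference between AngII and control was 1.51 (standard error 0.62, limma unadjusted p = 0.0277, adjusted p = 0.782). Without S6, S7, S1 or S3 it was between 1.33 and 1.41 or, without S1, 1.501, and limma's unadjusted p was then 0.0587 to 0.0734. In ldCil and AngII+ldCil the means were 0.88 and 1.15 above control (standard error 0.62 each), with overlap. The ldCil difference was 0.57 without S11 and 0.50 without S12, and that of AngII+ldCil was 0.88 without S16 and 0.77 without S15.

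Myl3, the ventricular essential light chain, was steadier. Its values were 9.61, 9.95 and 9.56 in control, 10.27, 9.95, 10.09 and 10.04 in AngII, 9.74, 9.62, 9.71 and 10.04 in ldCil, and 9.88, 9.90, 10.18 and 9.01 in AngII+ldCil. The lowest value was that of S16, 0.55 below the next. The Myl4 to Myl3 ratio was -3.12 ± 0.07 in control (n = 3) and -1.99 ± 0.68 in AngII (n = 4), a difference of 1.13 with no overlap. In the exact permutation test p was 0.0571, which is the smallest that 3 against 4 libraries can give, and the adjusted p was 0.714. At the group means Myl4 stood at 11.5% of Myl3 in control and 25.2% in AngII. The ratio was -2.31 ± 1.10 in ldCil and -2.01 ± 1.33 in AngII+ldCil, where S16 reached -0.48 (71.6% of Myl3). The AngII+ldCil difference of 1.11 from control was 0.599 without S16, and the ldCil difference of 0.81 was 0.47 without S11 and 0.51 without S12.

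**Figure D3:**
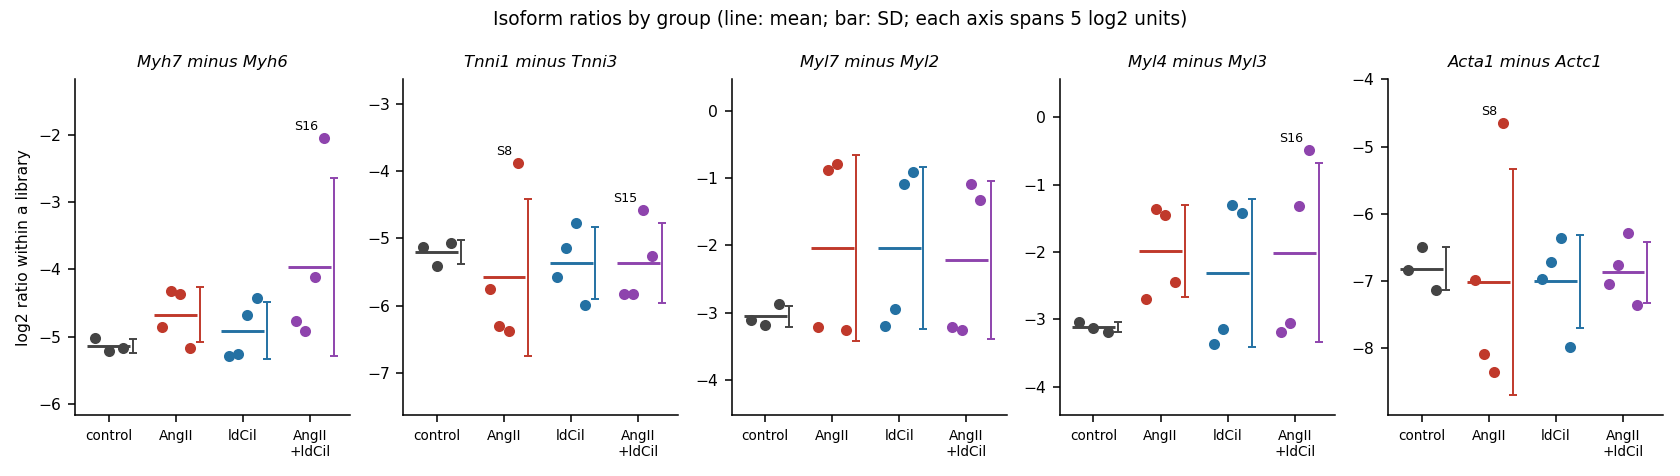
Log2 ratio of the 5 gene pairs within each library (vertical axis; each panel spans 5 log2 units) by treatment group, with 1 point per library, a line at the group mean and a bar of 1 SD. Both light chain ratios have low and high libraries in every treated group, and S16 stands alone in Myh7 minus Myh6 at -2.05.

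The libraries with high Myl7 and Myl4 were also high in most of the other atrial markers tested. Of 8 atrial markers, 7 were listed and 6 passed the filter. Nppa, the natriuretic peptide of atrial granules, was at the top of the range in every library (11.73 to 12.403) and did not separate the 6 libraries from the other 9. Bmp10, an atrial growth factor, lay between 7.33 and 8.24 in the 6 libraries and between 3.52 and 5.00 in the other 9, Dkk3 between 6.13 and 6.48 against 3.91 to 5.29, and Sln (sarcolipin, an inhibitor of the calcium pump in atrial muscle) between 5.33 and 6.72 against 3.44 to 4.17. Stard10 (3.85 to 5.16 against 2.75 to 3.70) and Nr2f2 (2.75 to 3.35 against 1.35 to 2.675) also separated, but by narrow gaps. The mean of the 6 genes, each centred on its mean over the libraries, was 0.82 to 1.15 in the 6 and -0.89 to -0.47 in the 9. The 4 ventricular markers (Hey2, Irx3, Irx4 and Irx5) showed no such step, with list means of -0.57 to 0.28 and -0.36 to 0.24. In bulk samples, a different share of atrial cells and a different RNA level per cell cannot be told apart.

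With the atrial list mean as a covariate, an alternative chosen after seeing the data, the differences from control became small for Myl7 (0.07 in AngII, -0.04 in ldCil and -0.26 in AngII+ldCil). The list holds Sln, the gene nearest to Myl7 over these libraries, and its mean was low in all 3 control libraries. The covariate thus repeats the split of Myl7, and this fit cannot say where the difference came from. That of Myl4 fell to 0.60 in AngII (limma unadjusted p = 0.0165, adjusted p = 0.795), 0.02 in ldCil and 0.18 in AngII+ldCil. The means of other lists moved with the same libraries. The mean of 22 interferon response genes was -1.92 to -1.52 in the 6 and -0.80 to 2.72 in the 9, that of 6 macrophage markers -1.69 to -0.28 against 0.11 to 1.16, and that of 9 fibroblast markers -1.34 to -0.08 against -0.20 to 0.46. Lyz2, Cd68 and Ctss were the most abundant macrophage markers and Sparc, Col1a1 and Col1a2 the most abundant fibroblast markers. Not all markers of these lists shared the step. Dcn was 5.54 in S15, its highest value in the 6, and 6.34 in S8, its lowest in the 9. Col3a1 was instead higher in S6 (8.91) than in S1 (8.46), and Lyz2 higher in S12 (7.32) than in S1 (6.97). With the interferon list mean as the covariate the AngII difference of Myl7 was -0.03 and that of Myl4 0.46. Both covariates split the same libraries as Myl7, so these fits did not test the part of these lists in the light chain differences.

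**Figure D4:**
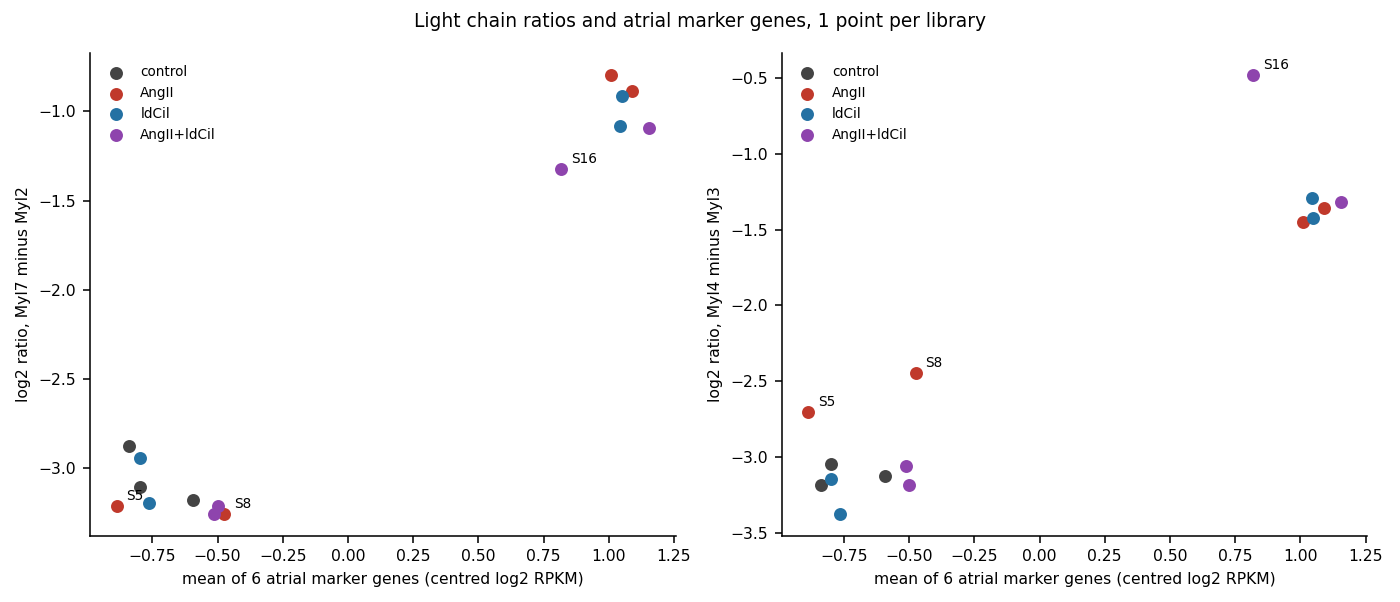
Log2 ratios Myl7 minus Myl2 (left) and Myl4 minus Myl3 (right) against the mean of 6 atrial marker genes (centred log2 RPKM), with 1 point per library coloured by group. The libraries fall into 2 clusters, with atrial means of -0.89 to -0.47 and 0.82 to 1.15, and S5 and S8 lie above the other low libraries only in the right panel.

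Genes whose values lay nearest to Myl7 were atrial as well. Over the 15 libraries Sln had the smallest root mean square difference from Myl7, 0.24 on the centred log2 scale, where Myl7 itself varied by 1.09. Mybphl, a relative of myosin-binding protein C found in the atria and conduction system, was next at 0.27. Mybphl was 4.20 to 5.11 in the 6 libraries and 2.54 to 3.41 in the 9. Arpp21 (0.28) and Gm31659 (0.33) were nearest to Myl4 (0.95), and both are low, with means of 0.43 and 0.07. Among abundant members the nearest genes followed small steps, as Cast and Lrpap1 for Myh6 (0.09 and 0.10 against 0.17), Gmps and Bola3 for Actc1 (0.07 and 0.09 against 0.15), and Hnrnpr and Psip1 for Myl2 (0.08 and 0.08 against 0.19). Fxyd1, a regulator of the sodium pump, and D10Jhu81e were nearest to Myl3 (0.07 and 0.09 against 0.30).

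Myh7, the beta myosin heavy chain of fetal and stressed ventricle, lay between 6.05 and 7.16 in every library but S16. It was 6.05, 6.18 and 6.11 in control, 6.31, 6.96, 6.91 and 6.23 in AngII, 6.11, 6.14, 6.60 and 6.84 in ldCil, and 6.31, 6.15, 7.16 and 8.68 in AngII+ldCil. The 4 AngII libraries lay above the 3 control libraries, the lowest AngII value being 6.23 and the highest control value 6.18. The same 6 libraries that were high in Myl7 held the highest values, 6.60 to 8.68 against 6.05 to 6.31 in the other 9. This split was set by Myl7, and the share of all genes tested that it separates is not given here. Means of the interferon and regulator lists also separated these libraries, so the split is not particular to Myh7 and Myl4. The AngII difference from control was 0.49 (standard error 0.45, limma adjusted p = 0.828), and 0.01 with the atrial list mean as a covariate. That covariate splits the same libraries, so the fit cannot say where the Myh7 difference came from. AngII+ldCil lay 0.96 above control (standard error 0.45, limma unadjusted p = 0.0494, adjusted p = 0.849), and 0.43 above it without S16 (limma unadjusted p = 0.146). It lay 0.47 above AngII (standard error 0.42, limma adjusted p = 1), and -0.06 from it without S16.

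Myh6, the alpha heavy chain, was 11.08, 11.40 and 11.27 in control, 11.17, 11.27, 11.27 and 11.40 in AngII, 11.40, 11.40, 11.27 and 11.27 in ldCil, and 11.08, 11.08, 11.27 and 10.73 in AngII+ldCil. S16 was the lowest, 0.35 below the next. Its differences between groups ranged from -0.30 (standard error 0.14, AngII+ldCil against ldCil, limma adjusted p = 0.974) to 0.09 (standard error 0.15, ldCil against control, limma adjusted p = 0.966).

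The ratio of Myh7 to Myh6 was -5.02, -5.22 and -5.17 in control, -4.86, -4.32, -4.37 and -5.16 in AngII, -5.29, -5.25, -4.67 and -4.43 in ldCil, and -4.76, -4.92, -4.12 and -2.05 in AngII+ldCil. At the group means Myh7 stood at 2.85% of Myh6 in control, 3.91% in AngII, 3.32% in ldCil and 6.41% in AngII+ldCil, and at 24.1% in S16. All 4 AngII+ldCil libraries lay above all 3 control libraries, by a mean of 1.17, and the exact permutation p was 0.0571, the smallest possible, with an adjusted p of 0.714. Without S16 the difference was 0.53. Against AngII the AngII+ldCil ratio was higher by 0.71 (exact permutation p = 0.4) and by 0.07 without S16, and the AngII ratio was higher than control by 0.46 with overlap (exact permutation p = 0.114).

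S16 stood apart in more than Myh7. Its fibroblast list mean was -1.34 (others -0.32 to 0.46), its macrophage list mean -1.69 (others -0.63 to 1.16) and its cardiomyocyte list mean, over 12 genes that are no members, -0.39 (others -0.18 to 0.31). The cardiomyocyte genes did not move together in S16. Ckmt2 was 3.09 (mean over the 15 libraries 6.29) and Tcap 5.46 (6.87), but Tnnt2 was 11.27 (11.07) and Ttn 10.53 (8.85). The gene most like Myh7 over the 15 libraries was Foxo3 (root mean square difference 0.34 against 0.66 for Myh7 itself), a transcription factor, followed by Ttn (0.34), which encodes titin. Ttn was 10.53 in S16 and 7.78 to 9.26 elsewhere. The Myh7 locus (chr14:54970684-54994626, minus strand) is overlapped on the opposite strand by the antisense genes Mhrt, Gm29015 and Gm31251, over 3666, 331 and 12209 bases. Whether reads were counted by strand is not given in the sources used here, so reads of Myh7 and of these genes may not be separable. In S16 Mhrt was 1.91 (others 3.00 to 4.95) and Gm31251 was 2.07 (others 2.84 to 4.60), both the lowest of the 15 libraries. Gm29015 was 0.70 in S16, near its median of 0.80 (range -3.49 to 1.88).

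Acta1, the skeletal alpha actin of the fetal heart, was dispersed by single libraries. It was 4.90, 5.24 and 4.60 in control, 4.75, 3.46, 3.20 and 7.08 in AngII, 4.76, 4.83, 5.04 and 3.57 in ldCil, and 4.94, 5.22, 5.44 and 4.37 in AngII+ldCil. The AngII group held both the highest value, in S8, which was 1.65 above the next library, and the lowest ones, in S6 and S7. The difference between AngII and control was -0.29 (standard error 0.69, limma adjusted p = 0.943), and it was -1.11 without S8 (limma unadjusted p = 0.0226, adjusted p = 0.611) and 0.19 without S7, so its sign rested on single libraries. AngII+ldCil was 0.37 above AngII (standard error 0.64, limma adjusted p = 1), and 1.19 above it without S8 (limma unadjusted p = 0.011, adjusted p = 0.763).

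Actc1, the cardiac alpha actin, was 11.73 in all 3 control libraries, 11.73, 11.54, 11.54 and 11.73 in AngII, 11.73, 11.54, 11.40 and 11.54 in ldCil, and 11.98, 11.98, 11.73 and 11.73 in AngII+ldCil. These are steps between neighbouring ranks. AngII+ldCil exceeded ldCil by 0.30 (standard error 0.135, limma unadjusted p = 0.0406, adjusted p = 0.974). The ratio of Acta1 to Actc1 ranged from -8.34 (0.308%) in S7 to -4.65 (3.996%) in S8, the other 14 libraries lying at -6.29 or below. Group means were -6.82 ± 0.32 in control (n = 3), and -7.01 ± 1.69 in AngII, -7.00 ± 0.70 in ldCil and -6.87 ± 0.45 in AngII+ldCil (n = 4 each), and the exact permutation p over the 5 comparisons was 0.8 to 0.971.

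The genes that varied most like Acta1 were Mybpc2 (root mean square difference 0.34 against 0.90 for Acta1 itself), the fast skeletal myosin-binding protein C, and Hspa1l (0.46), a heat shock protein gene. Mybpc2 was 4.35 in S8 and 3.804 in S15, and 1.33 to 3.09 in the others. Of 8 skeletal muscle markers only Tnnt3 was listed. It was 2.41 in S8 and -0.51 to 1.25 in the other 14 libraries. The part of this in the Acta1 level of S8 was not tested.

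Tnni1, the slow skeletal troponin I of the fetal heart, was the least abundant member. Its values were 3.98, 4.18 and 3.92 in control, 4.17, 3.599, 3.69 and 5.47 in AngII, 3.75, 3.95, 4.60 and 4.07 in ldCil, and 3.78, 3.83, 5.34 and 4.05 in AngII+ldCil. S8 and S15 stood 0.75 above the other 13 libraries. Group differences were at most 0.22 (AngII+ldCil against control, standard error 0.43, limma adjusted p = 0.937). Without S8 the AngII difference from control was -0.21 in place of 0.20. Gnao1, the G protein alpha-o subunit, was nearest to Tnni1 (0.23 against 0.54) and was likewise high in S8 and S15, at 4.66 and 4.65, followed by Scube2 (0.31), at 2.87 and 2.99.

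Tnni3, the cardiac troponin I of the mature heart, was 9.11, 9.59 and 8.99 in control, 9.92, 9.90, 10.07 and 9.35 in AngII, 9.32, 9.09, 9.37 and 10.07 in ldCil, and 9.61, 9.66, 9.92 and 9.30 in AngII+ldCil. The control value of S2 exceeded the AngII value of S8, so the groups overlapped. Tnni3 was 0.58 higher in AngII than in control (standard error 0.24, limma unadjusted p = 0.0298, adjusted p = 0.782), and 0.39 higher in AngII+ldCil (standard error 0.24, limma adjusted p = 0.849). Over the leave-one-out fits the AngII difference was 0.46 to 0.76. Without S1, S3, S5, S6 or S7 limma's unadjusted p was 0.0584 to 0.118. The nearest genes were Pgam2, the muscle phosphoglycerate mutase, and Ndufb11, a subunit of mitochondrial complex I (0.12 each against 0.35). Tnni3 shares 1297 bases with Dnaaf3 on the same strand, which was at most 0.09 in any library.

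The ratio of Tnni1 to Tnni3 was -5.20 ± 0.18 in control (n = 3), and -5.58 ± 1.17 in AngII, -5.37 ± 0.53 in ldCil and -5.37 ± 0.59 in AngII+ldCil (n = 4 each). All groups overlapped, and the exact permutation p of the 5 comparisons was 0.629 to 1. The lowest ratio was -6.38 in S7 and the highest -3.88 in S8, where Tnni1 stood at 6.79% of Tnni3. None of the 25 ratio comparisons had a p under 0.05. With 3 against 4 libraries the exact test cannot go below 0.0571, and with 4 against 4 not below 0.0286.

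**Figure D5:**
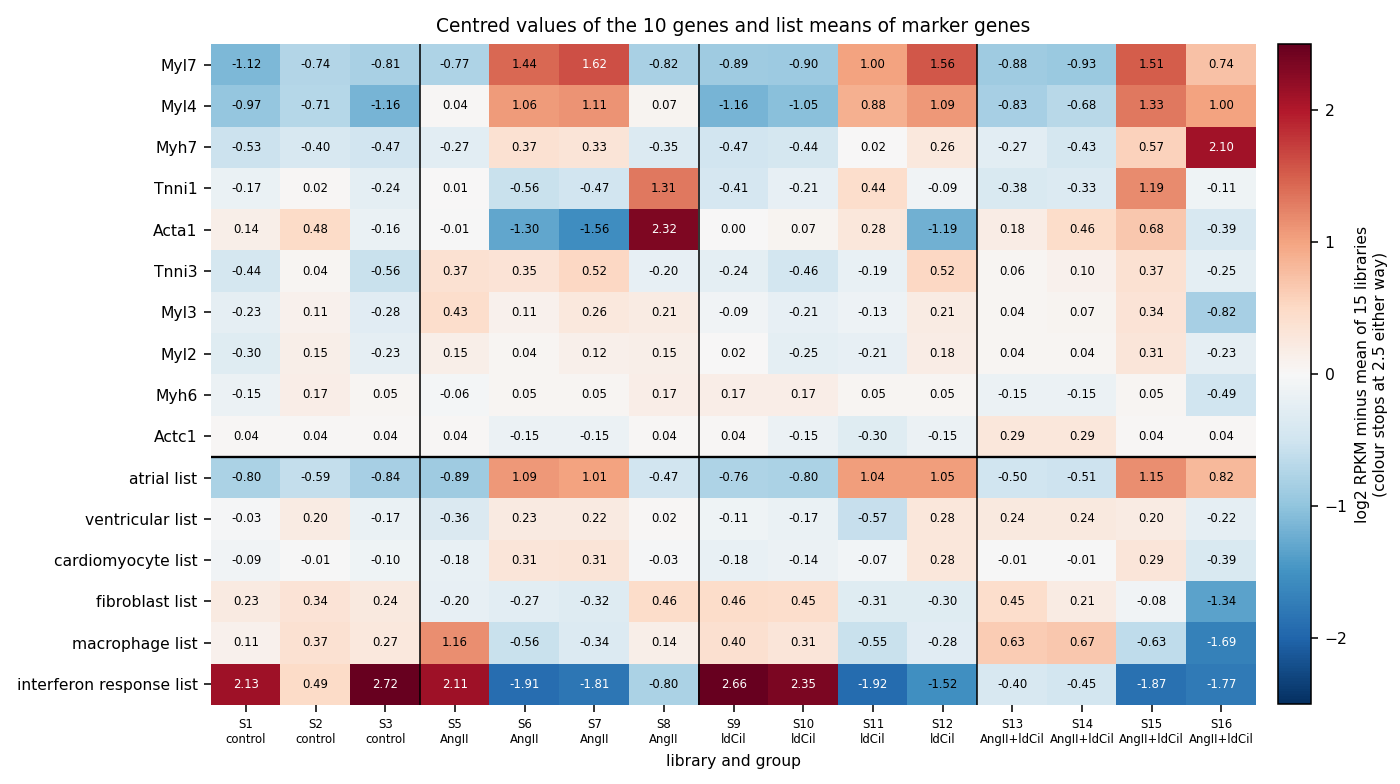
Log2 RPKM of the 10 genes minus their mean over the 15 libraries, and means of 6 marker lists centred in the same way, for each library in group order (colour and printed numbers). Myl7, Myl4 and the atrial list share their 6 high libraries, S8 stands out in Acta1 and Tnni1 (levels of 7.08 and 5.47), and S16 in Myh7 (level of 8.68).

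Other sarcomere genes gave no call either. Of 11 tested genes of the myosin and thick filament list, 7 were higher and 4 lower in AngII than in control (median 0.11, all genes 0.02). In limma 1 passed an unadjusted p of 0.05, beside 6.04% of all genes. This was Myl6b, a light chain of slow and non-muscle myosin, at 0.73 (standard error 0.30, adjusted p = 0.782), followed by Mybphl at 1.25 (standard error 0.67). Of those lower, Myl1 (-0.58, standard error 0.63) and Mylk3, the cardiac myosin light chain kinase (-0.17, standard error 0.19), had the smallest p. Without single libraries Myl1 ranged from -1.04 to -0.15 and Mylk3 from -0.29 to -0.04, and Mybphl was 0.92 without S6. Of 19 tested thin filament and Z-disc genes, 12 were higher and 7 lower (median 0.17) and 0 passed. The smallest p belonged to Csrp3, a muscle LIM protein of the Z-disc (0.64, standard error 0.33), and Tnnt1, the slow skeletal troponin T (1.25, standard error 0.64), on the higher side, and to Nebl (-0.48, standard error 0.29) and Tpm3 (-0.34, standard error 0.26) on the lower. The Tnnt1 difference was 1.06 without S7.

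In AngII+ldCil against AngII, 7 of the 11 thick filament genes were higher and 4 lower (median 0.14), led by Mylk3 (0.34, standard error 0.17) and Ttn (0.56, standard error 0.36), with Mybphl (-0.30, standard error 0.62) and Myl6b (-0.13, standard error 0.28) lower. Of the 19 thin filament and Z-disc genes, 6 were higher and 13 lower (median -0.08). Lmod2 (0.32, standard error 0.21) and Acta2 (0.30, standard error 0.21) led the higher side. Tnnt3, the fast skeletal troponin T, was lower by -1.19 (standard error 0.45, limma unadjusted p = 0.0188, adjusted p = 1), and was followed by Actg2 (-0.58, standard error 0.39). Tnnt3 was highest in the AngII library S8, as given for Acta1, and its difference was -0.71 without S8. That of Ttn was 0.16 without S16 and 0.24 without S5, that of Lmod2 0.08 without S5, and that of Actg2 -0.196 without S15. Mybphl and Myl6b changed sign when single libraries were left out (0.04 without S6 and 0.04 without S13).

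Among 17 tested regulators of sarcomere genes, 15 were higher and 2 lower in AngII than in control (median 0.16, all genes 0.02). None passed an unadjusted p of 0.05 in limma (6.04% of all genes did). The share of all genes with a higher mean is not given here. Thrb, the beta receptor for the thyroid hormone that drives the Myh7 to Myh6 exchange, was 1.10 higher (standard error 0.58). Its level was 3.43 in S6 and 3.55 in S7, but 1.64 in S5 and 2.21 in S8, against 0.99 to 2.03 in control. The difference was 0.82 without S7 and 0.79 without S3. Tead1, which binds the M-CAT motif, was -0.43 (standard error 0.25) and Myocd, the coactivator of serum response factor at CArG boxes, -0.25 (standard error 0.21). In AngII+ldCil against AngII, 12 were higher and 5 lower (median 0.04, all genes 0.01). In limma 3 passed an unadjusted p of 0.05, all higher, where 2.58% of all genes passed in either direction. How many of all genes passed on the higher side alone is not given here. Tbx20, a cardiac T-box factor, was at 0.83 (standard error 0.31, limma unadjusted p = 0.0175), Myocd at 0.49 (standard error 0.20, limma unadjusted p = 0.0274) and Tead1, named after its value was seen, at 0.55 (standard error 0.23, limma unadjusted p = 0.0284), with a limma adjusted p of 1 for each. These differences were over 1.5 times smaller without the AngII library S5, at 0.497 for Tbx20, 0.24 for Myocd and 0.28 for Tead1. Without S5 the AngII difference from control was -0.15 for Tead1 and -0.01 for Myocd. Thrb (-0.57, standard error 0.54) and Hand2 (-0.11, standard error 0.15) led the lower side, and without single libraries ranged from -0.93 to -0.29 and from -0.22 to -0.04. In AngII+ldCil against control all 17 had a higher mean (median 0.24, all genes 0.05). In limma 2 passed an unadjusted p of 0.05, where 5.62% of all genes passed and 2.7% did so on the higher side. They were Tbx20 (0.84, standard error 0.33, limma adjusted p = 0.849) and the cardiac zinc finger factor Gata4 (0.56, standard error 0.26, limma adjusted p = 0.849). The list mean of the regulators was 0.12 to 0.35 in the 6 libraries with high Myl7 and -0.58 to 0.04 in the 9.

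The 12 cardiomyocyte markers were all tested, with means over the libraries from 6.29 (Ckmt2) to 11.07 (Tnnt2). Markers of other cells were also at substantial levels, with Sparc at a mean of 10.18, Acta2, the smooth muscle actin, at 10.11 and Lyz2 at 7.37. Range of list means over the 15 libraries was -0.40 to 0.39 for 6 smooth muscle, -0.35 to 0.88 for 7 endothelial and -0.71 to 0.65 for 5 epicardial markers. Of 4 Schwann cell markers 2 were listed and 1 was tested, at a list mean of -1.03 to 0.70.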

How the data were processed

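RNA-Seq was performed by the authors on poly(A)-captured RNA of cultured mouse cardiomyocytes, in 15 libraries and 4 groups taken from the labels. The submitters' processing notes name HISAT2, HTSeq and GRCm38 (mm10), without versions. Values as deposited are log2 RPKM after conditional quantile normalisation by the authors. They hold no counts, so depth and counting precision are unknown. Identifiers were matched to GENCODE M21 (14329 of 14337 found). The 12848 genes whose log2 RPKM averaged 0 or more were tested with limma 3.58.1 in R 4.3.3, with 1 mean per group, moderation with a trend, 2-sided tests and Benjamini-Hochberg adjustment over all genes. Log2 ratios were compared by 2-sided exact permutation tests (scipy 1.17.1), adjusted over 25 tests. A list mean averages the values of its tested genes, each centred over the 15 libraries.

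The members and gene lists were chosen with earlier results of these data known. All members and ratios are named. Of the 3 sarcomere and regulator lists, the 2 smallest p-values of either direction decided the names in AngII against control and in AngII+ldCil against AngII, and for each member the 2 tested genes nearest by root mean square difference of centred values were named. Genes named beyond this rule (Bmp10, Dkk3, Sln, Stard10, Nr2f2, Tead1 in the second comparison, Tbx20 and Gata4 in AngII+ldCil against control and the overlapping genes) were chosen after their values were seen. Alternatives were no filter, a filter at 2, a pseudocount of 0.1 or 1, centring on medians, quantile normalisation, only the groups compared, no trend, robust moderation, each library left out, group medians for ratios, the interferon list mean as a covariate and, chosen after seeing the data, the atrial list mean and, for named list genes, each library left out. The fit was tested on simulated data. Promoter windows are from RefSeq (GRCm38.p6), found for all 10 members; sequence comparisons used biopython 1.88 on the longest open reading frame of GENCODE M21 transcripts. A result that the naming rule gives is not reported here. Other experiments of the study were not analysed here.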

Additional observations from a re-analysis of the deposited data

Results flagged for a closer look

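Of 45 sets of 4 libraries examined (10 genes and 5 ratios in 3 groups), 1 held a library far from the others. Tnni1 in AngII+ldCil was 5.34 in S15 against 3.78 to 4.05 in the other 3 libraries. Chance flags about 1 in 20 such sets. Without S15 the AngII+ldCil difference of Tnni1 from control was -0.14 in place of 0.22, and limma passed neither (adjusted p 0.998 and 0.937). In the AngII by ldCil interaction no member passed limma's test, and Actc1 had the smallest unadjusted p (0.0652, adjusted 0.958).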

How the results depend on the processing

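The count of members at an adjusted p under 0.05 in limma was 0 in all 6 contrasts under each alternative run, 155 values in all. The 285 recomputed ratio differences stayed on the same side of the threshold in exact permutation tests, while 34 differed in sign from the value reported. Many of them could not have crossed it. With 3 against 4 libraries or fewer the exact permutation p cannot go below 0.0571. This holds for every ratio comparison with control and for every one with a library left out. Some alternatives leave a member's fold change as it was by construction. These are the filters, the moderation settings, fitting only the groups compared and leaving out a library of another group. Of the recomputed fold changes of single members, 1540 moved by less than the spread between replicates or not at all (61 of them with another sign). Another 10 moved by more, all under the interferon or atrial covariate. They were 5 of Myl7, 4 of Myl4 and 1 of Actc1. For AngII+ldCil against control, Myl7 was -0.57 and -0.26 in place of 1.00, Myl4 was -0.13 and 0.18 in place of 1.15, and Actc1 was 0.27 with the interferon covariate in place of 0.13. The cause was not tested.

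Counts at an unadjusted p under 0.05 in limma depended on the setting. For AngII against control the 2 members became 4 when other groups were left out of the model, 0 with the interferon covariate and 1 with the atrial one, and 0 to 3 when single libraries were left out. In leave-one-out fits the counts were 0 to 2 for AngII+ldCil against control, against AngII and against ldCil, 0 to 1 for the interaction and 0 for ldCil against control. Myh7 in AngII+ldCil against control was 0.43 without S16 and 0.93 to 1.27 without any other library. No paired analysis was possible because the labels do not link a library of a group to a library of another group. Depth is unknown, so no limit from counting can be given, and matched ranks limit how far Actc1 and Myh6 can move.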
